A study of Mus musculus with 17 samples.

Results

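The natriuretic peptide system of the heart was examined through 6 genes chosen by symbol, of 31647 features in the count table: the ligands Nppa and Nppb, the receptors Npr1, Npr2 and Npr3, and the processing protease Corin. All 6 were found once in the table and all 6 had enough counts to be tested. The question was how their transcripts differed between the infarct zone (IZ) and sham left ventricle, both per library and relative to cardiomyocyte transcripts. The hearts came from 17 young adult male wild-type C57BL/6J mice 5 d after surgery. The left anterior descending coronary artery (LAD) was tied off permanently, without reperfusion, in the mice of the IZ group (n = 9), and the IZ was dissected from the ventricle. The sham group (n = 8) had the same operation without the tie, and its RNA came from left ventricle. Both groups had isoflurane anaesthesia and buprenorphine, and neither carried a transgene. Libraries were made by massive analysis of cDNA ends, which reads the 3′ end of each polyadenylated transcript and counts molecules by an identifier. Since a transcript gives its end once whatever its length, levels of different genes are compared below as CPM (counts scaled to the effective library size) with no length term.

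Natriuretic peptides are hormones that heart muscle releases when it is stretched, and they lower blood volume and pressure through the kidney and vessels. In the healthy adult, Nppa (atrial natriuretic peptide, ANP) is made mostly in the atria, and its expression in the ventricle, like that of Nppb (B-type natriuretic peptide, BNP), is a classical mark of load or injury. Both peptides bind the receptor encoded by Npr1, a guanylyl cyclase that makes cyclic GMP (cGMP). Npr2 encodes the related cyclase for C-type natriuretic peptide, and Npr3 encodes a receptor without a cyclase domain that clears the peptides from the circulation. Corin is a membrane-bound serine protease of cardiomyocytes that cuts pro-ANP to its active form.

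Nppa (ENSMUSG00000041616, mm10 chr4:148000722-148002079, plus strand) and Nppb (ENSMUSG00000029019, chr4:147985788-147987205, plus strand) are neighbours, 13516 bp apart. Their promoters are shown because the ligands lie side by side yet differed in their response. Each line gives the 250 bases before the RefSeq start site in GRCm38.p6, at chr4:148000472-148000721 for Nppa and chr4:147985650-147985899 for Nppb, 5′ to 3′ on the plus strand. The Nppa window ends where the gene span given above begins. For Nppb that span begins upstream of the RefSeq start, at 147985788. The end of the Nppb window, with all its marked matches, therefore lies inside the span. Capitals mark matches on either strand to GATAA (the letters GATA factors recognize), CATTCC (the M-CAT element of TEAD factors) and TATAAA (the TATA box).
Nppa: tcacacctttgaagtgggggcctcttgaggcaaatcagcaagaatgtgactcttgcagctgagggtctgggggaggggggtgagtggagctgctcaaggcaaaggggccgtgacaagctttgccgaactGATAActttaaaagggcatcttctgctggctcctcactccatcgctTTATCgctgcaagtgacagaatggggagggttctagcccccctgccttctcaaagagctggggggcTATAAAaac
Nppb: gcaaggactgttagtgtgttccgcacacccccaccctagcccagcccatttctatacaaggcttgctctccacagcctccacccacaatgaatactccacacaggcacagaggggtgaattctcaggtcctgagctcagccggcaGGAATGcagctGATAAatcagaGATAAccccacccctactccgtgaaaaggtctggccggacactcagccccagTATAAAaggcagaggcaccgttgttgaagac
The Nppa window held GATAA at base -121 from the start, its reverse complement TTATC at -75 and TATAAA at -9. The Nppb window held GGAATG at -105, which is the M-CAT element read on the other strand, GATAA at -94 and -83 and TATAAA at -31. These matches did not overlap each other. GATAA was present in 22.6%, CATTCC in 12.6% and TATAAA in 12.4% of 32841 mouse promoter windows of that length, on either strand. AAGTG, a core of the NKX2 site left in lower case, occurred at -239 and -65 of Nppa and in 40.7% of all windows. None of these 4 motifs had a match in the windows of Npr1, Npr2, Npr3 or Corin. The matches describe letters and were not tied to binding in these hearts.

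The libraries held 1237675 to 4738307 counts. The labelled tissue was checked with 10 cardiomyocyte transcripts (Myh6, Tnnt2, Tnni3, Tnnc1, Actc1, Mybpc3, Myl2, Myl3, Ttn and Ryr2), whose summed level was 65869.9 to 80099 CPM in sham. In the IZ the sum was 31545 CPM in replicate 1 and 3132 to 7388 CPM in the other 8 libraries, and the difference between the groups was -3.66 on the log2 scale (two-sided exact permutation p 8.23e-05). IZ replicate 1 thus stood apart from its group, and its 5 leukocyte markers summed to 1548.5 CPM against 2790 to 4425 CPM in the other IZ libraries. Whether more surviving muscle was sampled with it was not tested, and results below are also given without it. In these bulk samples, fewer cells of a type and less RNA per cell cannot be told apart.

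Nppa rose strongly in the IZ while Nppb did not, and the receptor and protease transcripts fell. Of the 6 genes, 1 was called higher and 4 lower at an adjusted p under 0.05 (edgeR quasi-likelihood test), against a background of 69.5% of 12301 tested genes called, 36.3% higher and 33.1% lower. Calls were thus common among all genes, and the share among these 6 is no result about them. Their counts were the same without IZ replicate 1. Library scaling moved the whole distribution: the median log2 fold change of all tested genes was 0.05 with TMM scaling and 1.13 with total counts alone, and the calls went from 4470 higher and 4074 lower to 9176 higher and 1534 lower. Values are given with TMM. For the 6 genes and the other tested genes named for peptide processing, cGMP and nitric oxide, a direction turned by total counts alone is stated beside the value.

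**Figure D1:**
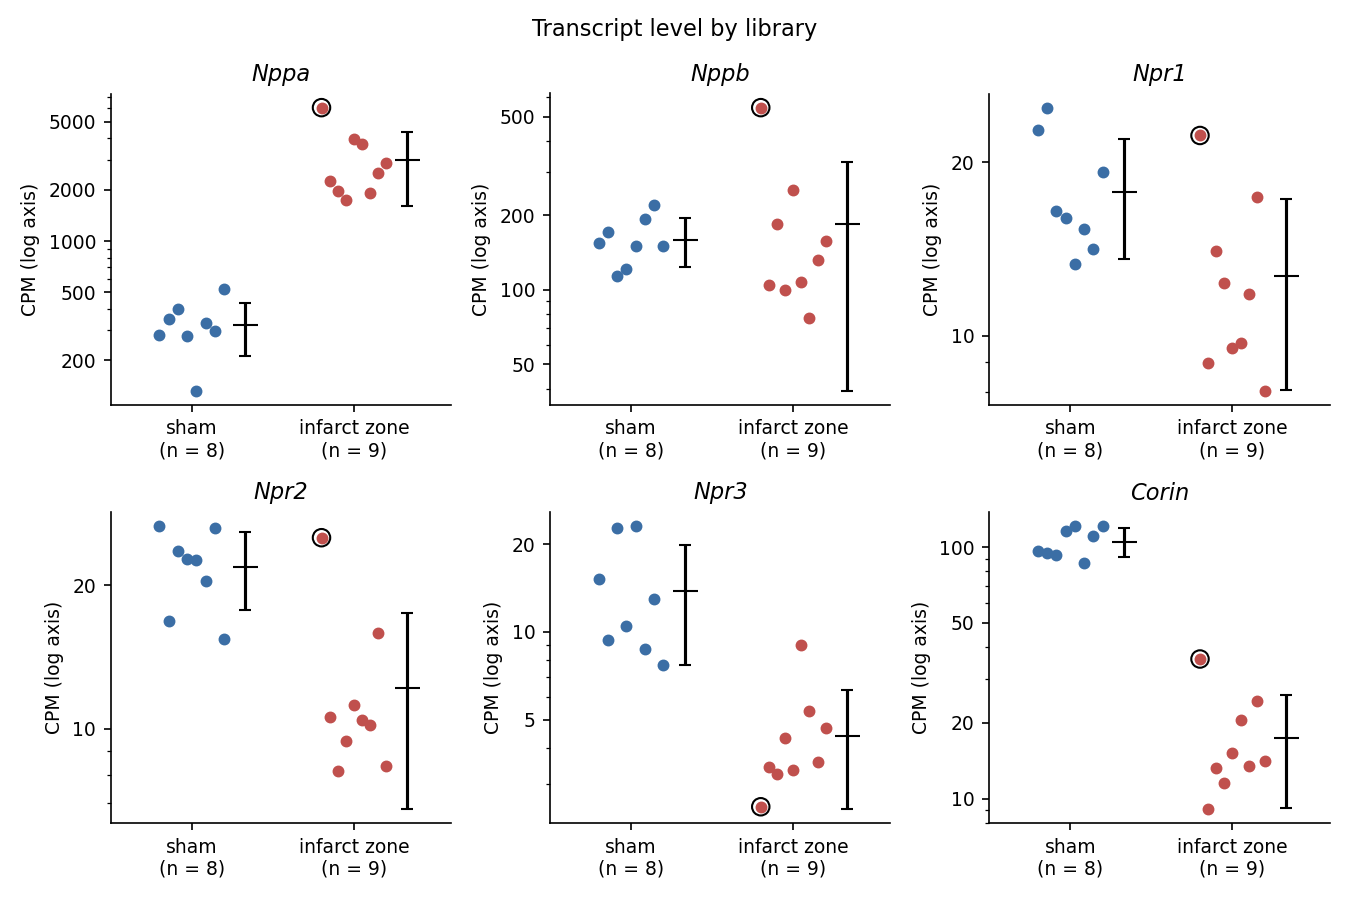
Transcript level of each gene by library, in CPM on log axes, for sham (blue, n = 8) and IZ (red, n = 9). Points are libraries, black bars are mean ± SD, and IZ replicate 1 is circled. Every IZ library lies above every sham library for Nppa and below it for Corin, while the groups overlap for the other 4 genes.

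Among the ligands, Nppa had 133 CPM in the lowest sham library, a median of 313 and 522 in the highest. In the IZ the lowest library had 1732 CPM, the median was 2513 and the highest, replicate 1, had 6036. All 9 IZ libraries lay above all sham libraries, as they did for 16.6% of all tested genes. The means were 324 ± 111 CPM (SD, n = 8) and 2990 ± 1383 CPM (SD, n = 9), a 9.23-fold rise (log2 fold change 3.21, SE 0.29, edgeR adjusted p 1.26e-09). Ranked by mean CPM among all features, Nppa moved from rank 372 in sham to rank 21 in the IZ. Without IZ replicate 1 the IZ mean was 2610 ± 834 CPM (SD, n = 8) and the log2 fold change 2.98.

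Nppb had 114, 153 and 220 CPM in the lowest, median and highest sham library. In the IZ it had 76.8, 132 and 544 CPM, with the highest value again in replicate 1. The groups overlapped in both directions, since 2 IZ libraries exceeded all sham libraries and 4 lay below them. The means of 159 ± 35.1 CPM (SD, n = 8) and 184 ± 145 CPM (SD, n = 9) gave a log2 fold change of 0.21 (SE 0.30, edgeR adjusted p 0.547). The sign of that value depended on a single library, as it was -0.23 without IZ replicate 1 (adjusted p 0.255), and the gene was called higher only with total counts alone, at 1.19 against the shifted median of 1.13.

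The divergence of the ligands was tested within each library, where scaling cancels. The ratio of Nppa to Nppb counts ran from 0.885 to 3.49 in sham, with a median of 1.93. In the IZ it ran from 10.6 to 34.4, with a median of 18.2 and 11.1 in replicate 1. No IZ library came near the sham range, and the geometric means of 1.95 and 18.0 differed 9.23-fold (two-sided exact permutation p 4.11e-05, the smallest this design allows, and 1.23e-04 after Benjamini-Hochberg adjustment over 3 ratios). The 2 other ligands on the pathway list were hardly detected. Nppc (C-type natriuretic peptide) had 0 to 1 counts per sham library and 0 to 4 per IZ library, and Ostn (osteocrin, which binds the clearance receptor) had 0 to 2 and 0, so neither was tested. A count of 3 corresponded to 1.14 to 2.35 CPM in sham and 0.414 to 1.68 CPM in the IZ.

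Of the receptors, Npr3 fell the most. It lies on chr15:11839896-11907287 (ENSMUSG00000022206, minus strand) and had 7.70, 11.7 and 23.1 CPM in the lowest, median and highest sham library. The IZ libraries had 2.51, 3.58 and 8.99 CPM. In 8 of 9 IZ libraries the level lay below all sham libraries. The mean fell from 13.8 ± 6.11 CPM (SD, n = 8) to 4.39 ± 1.92 CPM (SD, n = 9), 3.17-fold lower (log2 fold change -1.66, SE 0.27, edgeR adjusted p 8.11e-06). These levels rest on 12 to 45 counts per sham library and 6 to 25 per IZ library, and the fall was -0.57 with adjusted p 0.0595 when total counts alone were used.

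Npr2 (ENSMUSG00000028469, chr4:43631935-43651244, plus strand) had 15.4, 22.6 and 26.6 CPM in the lowest, median and highest sham library and 8.16, 10.4 and 25.1 CPM in the IZ. The highest IZ value was that of replicate 1, and 7 of 9 IZ libraries lay below all sham libraries. The means were 21.8 ± 4.06 (SD, n = 8) and 12.2 ± 5.36 CPM (SD, n = 9), with a log2 fold change of -0.87 (SE 0.21, edgeR adjusted p 6.38e-04) that turned to 0.17 (adjusted p 0.354) with total counts alone. Without IZ replicate 1 the log2 fold change was -1.12.

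Npr1, the cyclase through which ANP and BNP act, showed the smallest change among the genes called (ENSMUSG00000027931, chr3:90450591-90465866, minus strand). It had 13.3, 16.2 and 24.9 CPM in the lowest, median and highest sham library and 8.03, 11.8 and 22.3 CPM in the IZ. The groups overlapped, with 6 of 9 IZ libraries below all sham libraries. The means of 17.8 ± 4.17 (SD, n = 8) and 12.7 ± 4.62 CPM (SD, n = 9) gave a log2 fold change of -0.49 (SE 0.20, edgeR adjusted p 0.0343), which became 0.55 with total counts alone, below the shifted median of 1.13. The call was not stable, as it was lost on leaving out any of 9 of the 17 libraries (adjusted p 0.00186 without IZ replicate 1 and up to 0.0853 without IZ replicate 2).

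The receptor ratios were compared within libraries as well. The ratio of Npr3 to Npr1 counts was 0.387 to 1.72 in sham and 0.12 to 0.927 in the IZ, with 5 of 9 IZ libraries below all sham libraries. The geometric mean fell from 0.738 to 0.351 (log2 difference -1.07, two-sided exact permutation p 0.0165, adjusted over 3 ratios 0.0247), and this did not pass without sham replicate 3 (adjusted p 0.0521) or sham replicate 5 (adjusted p 0.0542). The ratio of Npr2 to Npr1, the cyclases, had geometric means of 1.23 and 0.948 (log2 difference -0.38, two-sided exact permutation p 0.0872). It passed only when sham replicate 2 (-0.50, adjusted p 0.0160) or sham replicate 8 (-0.46, adjusted p 0.0387) was left out.

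Corin (ENSMUSG00000005220, chr5:72300025-72504473, minus strand) changed the most after Nppa and in the opposite direction. Sham libraries had 86.7, 104 and 121 CPM at the lowest, median and highest. IZ libraries had 9.10, 14.1 and 35.9 CPM, the highest being replicate 1. All 9 IZ libraries lay below all sham libraries, as for 16.5% of tested genes. The mean fell from 105 ± 13.7 CPM (SD, n = 8) to 17.5 ± 8.33 CPM (SD, n = 9), 6.16-fold lower (log2 fold change -2.62, SE 0.20, edgeR adjusted p 1.23e-10), and the log2 fold change was -2.89 without IZ replicate 1 and -1.59 with total counts alone.

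In sham the order of mean levels was Nppa, Nppb, Corin, Npr2, Npr1 and Npr3, and the ranges over libraries overlapped between each gene and the next except between Corin and Npr2. In the IZ the order was Nppa, Nppb, Corin, Npr1, Npr2 and Npr3. There the ranges of Nppa and Nppb, and of Nppb and Corin, no longer overlapped, while those of Corin, Npr1, Npr2 and Npr3 still did in turn.

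The fall of cardiomyocyte transcripts made a second reading possible, the count of each gene per 1000 counts of the 10 cardiomyocyte transcripts. On this scale all 6 genes were higher in the IZ by edgeR with the cardiomyocyte sum as library size. So were most genes, since 97.5% of the 12301 tested genes were called, 96.9% higher and 0.528% lower, with a median log2 change of 3.91 and an interquartile range of 3.14 to 4.63. A rise per cardiomyocyte transcript was therefore the rule in this tissue, and the 6 genes are described by where they stood in that distribution.

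**Figure D2:**
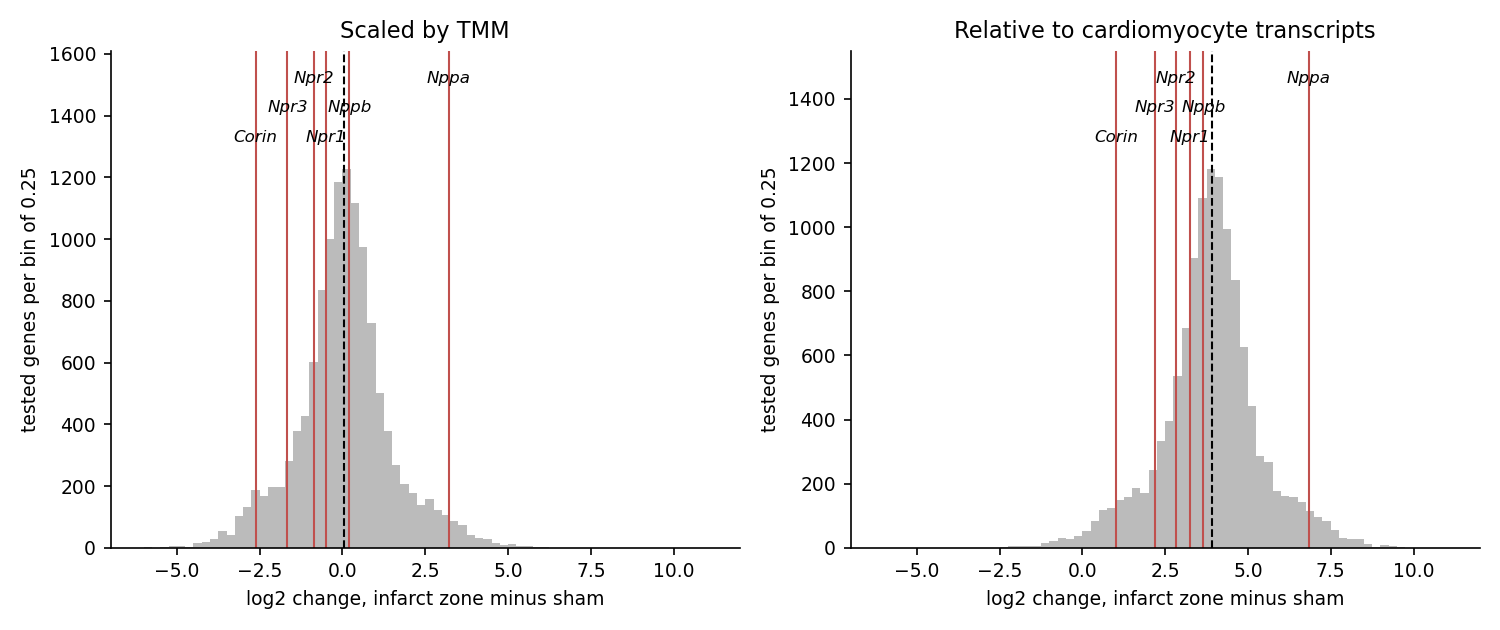
Distribution of log2 changes of all 12301 tested genes (grey, bins of 0.25) with the 6 genes as red lines and the median of all genes dashed, scaled by TMM (left) and relative to the 10 cardiomyocyte transcripts (right). Nppa lies to the right of the median on both scales, at 3.21 and 6.84, and Corin to the left, at -2.62 and 1.03.

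Nppa had 2.02, 3.97 and 6.53 counts per 1000 cardiomyocyte-transcript counts in the lowest, median and highest sham library. In the IZ it had 191 in replicate 1, the lowest, a median of 534 and 733 in the highest. The log2 change of 6.84 (SE 0.36, edgeR adjusted p 2.30e-23) was larger than that of 96.5% of tested genes, and it ranged from 5.58 to 7.78 over the other denominators and omissions tried. The same groups did not overlap for 80.7% of tested genes in that direction.

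Nppb, which did not differ in CPM, had 1.54, 2.13 and 2.83 counts per 1000 in sham and 17.2, 22.9 and 40.9 in the IZ. Replicate 1 was again the lowest IZ library, and all 9 lay above all sham libraries. Its log2 change of 3.65 (SE 0.33, edgeR adjusted p 1.13e-15) exceeded that of 40.3% of tested genes and so lay close to the median gene.

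Corin had 1.08, 1.39 and 1.84 counts per 1000 in sham and 1.14, 2.92 and 4.05 in the IZ, where replicate 1 lay inside the sham range and the other 8 libraries above it. The log2 change of 1.03 (SE 0.33, edgeR adjusted p 0.00273) exceeded that of 4.55% of tested genes. Its sign and its call depended on the denominator, as it was -0.16 (edgeR adjusted p 0.589) against Tnnt2 alone and 1.92 against Myh6 alone. The 10 denominator genes themselves ran from -1.04 to 1.26 on this scale, so the change of Corin lay within the spread of the cardiomyocyte transcripts.

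The receptors rose less than the median gene on the same scale, by 3.26 for Npr1, 2.81 for Npr2 and 2.20 for Npr3 on the log2 scale, and exceeded 27.9%, 18.6% and 11.3% of tested genes. Npr3 in IZ replicate 1 was at 0.0797 counts per 1000, below all sham libraries, while the other IZ libraries had 0.456 to 1.78.

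**Figure D3:**
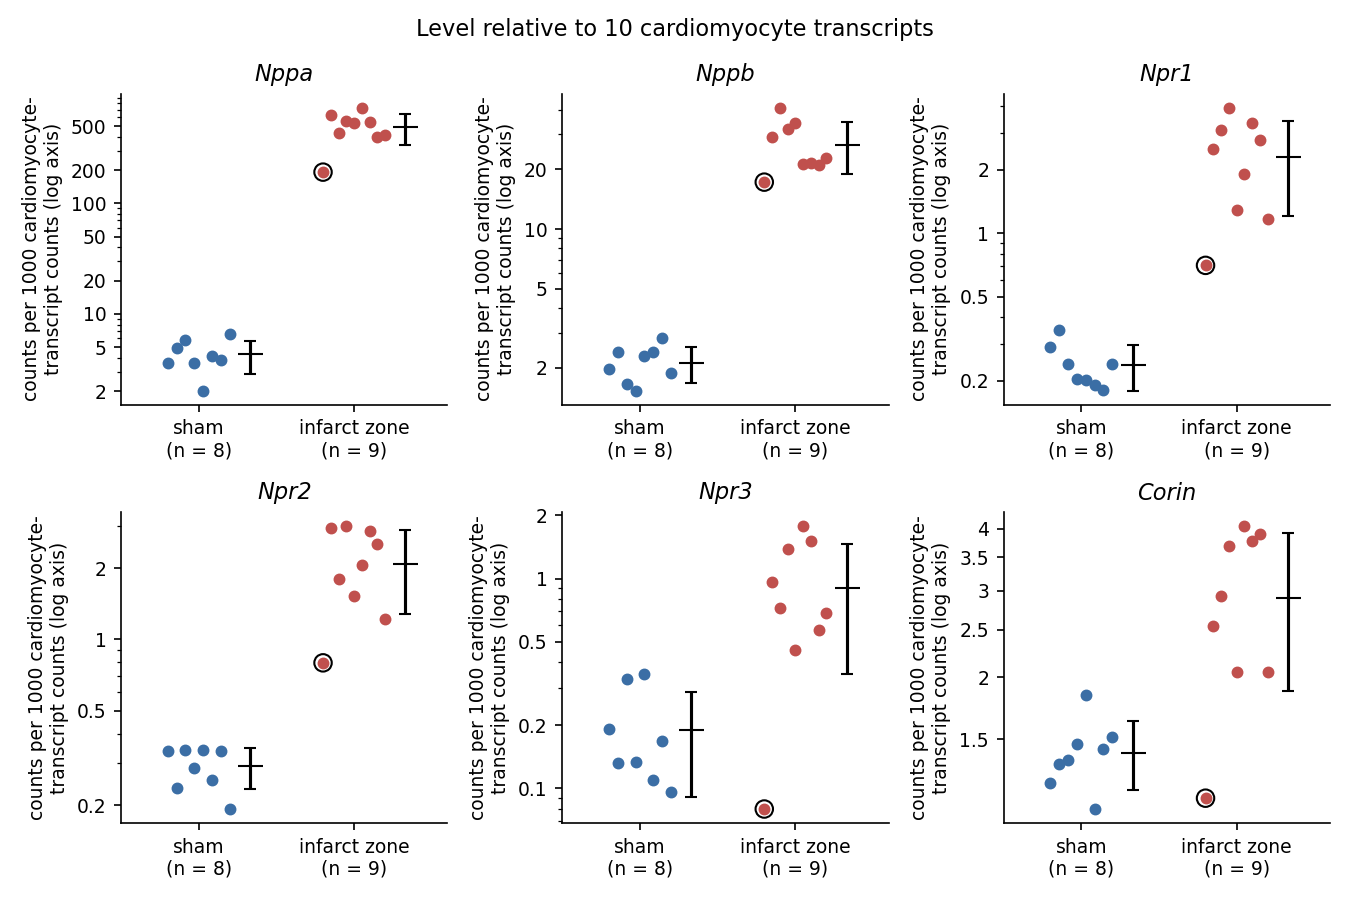
Counts of each gene per 1000 counts of the 10 cardiomyocyte transcripts, on log axes, for sham (blue, n = 8) and IZ (red, n = 9), with mean ± SD as black bars and IZ replicate 1 circled. The mean rose from 4.29 to 492 for Nppa and from 1.41 to 2.90 for Corin, and replicate 1 is the lowest IZ library in all 6 panels.

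Within the IZ, libraries with more cardiomyocyte transcripts had more Nppa and Nppb, while for Corin the relation depended on the measure and the scaling. Over the 9 IZ libraries the log2 CPM of Nppa went with the log2 summed CPM of the cardiomyocyte transcripts at Pearson r 0.88 (exact permutation p 0.00156, adjusted over 12 relations 0.0113) and Spearman rho 0.93 (exact p 7.50e-04, adjusted 0.00899). Nppb had r 0.92 (exact permutation p 0.00188, adjusted 0.0113) and rho 0.88 (exact p 0.00308, adjusted 0.0185). Corin had r 0.83 (exact permutation p 0.00645, adjusted 0.0258) and rho 0.78 (exact p 0.0172), but rho did not pass after adjustment (exact permutation, adjusted p 0.0689), and with CPM by total count r was 0.70 and did not pass (exact permutation, adjusted p 0.0942). Both axes share the library scaling. Without IZ replicates 1 and 4, the farthest from the median, r was 0.71 for Nppa, 0.74 for Nppb and 0.55 for Corin, and without replicate 1 alone it was 0.78, 0.75 and 0.60, none of which passed after adjustment (exact permutation, adjusted p 0.149, 0.149 and 0.347). The relations thus rest in part on replicate 1. For Npr2 r was 0.82 (exact permutation p 0.0285, adjusted 0.0854) and rho 0.57 (exact p 0.121), falling to 0.22 without the farthest libraries, while against the non-sarcomeric cardiomyocyte transcripts alone r was 0.86 and passed (exact permutation, adjusted p 0.0349). For Npr1 r was 0.59 and rho 0.13, and for Npr3 they were -0.43 and -0.35, and neither passed. In sham, Npr3 had r -0.75 (exact permutation p 0.0373, adjusted 0.0895) and rho -0.76, and r was -0.0050 without the farthest libraries, replicates 3 and 5. No relation in sham had an adjusted p under 0.05 by exact permutation.

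**Figure D4:**
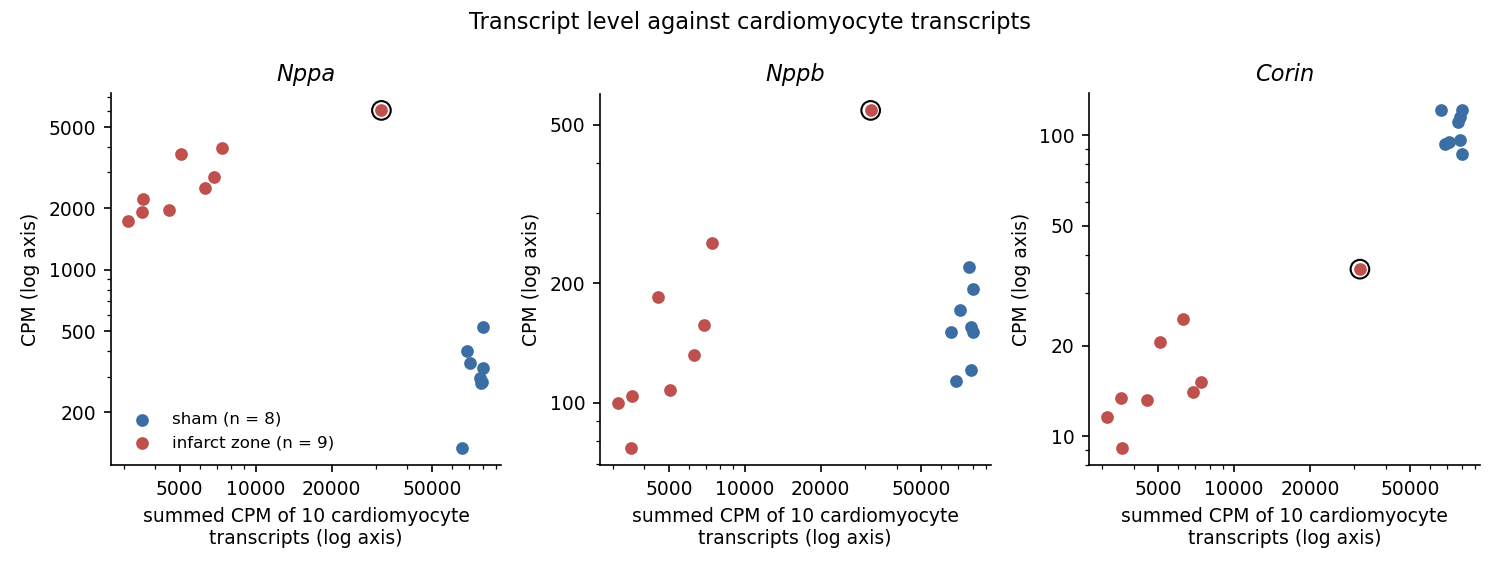
CPM of Nppa, Nppb and Corin against the summed CPM of 10 cardiomyocyte transcripts, both on log axes, one point per library (sham blue, IZ red, IZ replicate 1 circled). Within the IZ the points rise together, with r 0.88, 0.92 and 0.83 (0.78, 0.75 and 0.60 without replicate 1), and sham lies below the IZ for Nppa and above it for Corin.

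The genes whose log2 CPM was most like each of these over the 9 IZ libraries were ranked among 9080 genes averaging 10 CPM or more there, as a description in which replicate 1 lies apart from the rest. For Nppa they were Pnkd (r 0.97), Smim19, Pam, Myo18b and Rhbdf1 (r 0.95). Pam encodes an amidating enzyme known as a major membrane protein of atrial secretory granules, and its own level was 425 CPM in sham and 279 CPM in the IZ. For Nppb they were Ptgds (r 0.98), Tmem126a, Synpo2l, Btbd1 and Ndufs6 (r 0.97), and for Corin Bnip1 (r 0.98), Twf2, Mybpc3 (a sarcomere protein), Aes and Dlst (r 0.95). Npr1 was most like Kcnj8 (r 0.95), a potassium channel gene of pericytes, followed by Jarid2, Cyfip2, Chd4 and Setd3 (r 0.89). Npr2 was most like R3hdm4 (r 0.97), Oxnad1, Slc20a2, 1700020I14Rik and Gm10250 (r 0.94). Npr3 was under 10 CPM in the IZ and was not ranked.

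Other genes of peptide processing and breakdown went both ways. Of 5 listed genes 4 were tested, and 1 was higher and 3 lower, where 36.3% of all tested genes were higher and 33.1% lower, with a median log2 fold change of -0.82, and with total counts alone 1 was higher, 1 lower and 2 not called. Furin, the convertase that can cut pro-BNP, rose slightly from 61.4 ± 6.84 (SD, n = 8) to 74.7 ± 11.0 CPM (SD, n = 9), a log2 fold change of 0.28 (SE 0.11, edgeR adjusted p 0.0267). Pcsk6, which activates corin, and Ide, a peptidase that degrades natriuretic peptides, were at -0.81 and -0.82, and both turned to 0.23 with total counts alone. Mme (neprilysin, the main degrading enzyme) fell by 2.69 on the log2 scale (edgeR adjusted p 4.35e-07), from 9.72 ± 3.09 CPM (SD, n = 8) to 1.58 ± 1.23 CPM (SD, n = 9), with 0 to 8 counts per IZ library. Dpp4 had 1 to 33 counts and was not tested.

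Downstream of cGMP the genes went both ways, where 36.3% of all tested genes were higher and 33.1% lower. Of 5 effectors 4 were tested, with 1 higher, 2 lower and 1 not called, or 2 higher and 2 lower with total counts alone. Vasp, a cytoskeletal substrate of cGMP-dependent kinase, rose from 48.5 ± 9.15 (SD, n = 8) to 122 ± 26.5 CPM (SD, n = 9), at a log2 fold change of 1.33. Prkg2, a cGMP-dependent kinase, was at -2.35 and Pln (phospholamban, a calcium pump regulator of cardiomyocytes) at -3.57. Irag1, listed under its former symbol Mrvi1, was at -0.26 (edgeR adjusted p 0.292) and 0.80 with total counts alone. Prkg1, the main cardiovascular kinase of this pathway, had 0 to 5 counts per library and was not tested. The phosphodiesterases divided evenly, 2 of 4 tested genes higher and 2 lower. Pde1a rose from 4.68 ± 2.01 (SD, n = 8) to 22.7 ± 6.13 CPM (SD, n = 9) and Pde5a, the cGMP-specific enzyme, from 2.55 ± 1.05 (SD, n = 8) to 6.84 ± 1.64 CPM (SD, n = 9), at log2 fold changes of 2.25 and 1.41. Both had few sham counts, 3 to 17 per library for Pde1a and 1 to 10 for Pde5a. Both reached the count filter through the IZ, where Pde1a had 26 to 186 counts per library and Pde5a 9 to 55. Pde3a was at -1.60 and Pde1c at -2.96. Pde2a with 0 to 2 counts and Pde9a with 1 to 18 were not tested.

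The nitric oxide branch, which makes cGMP by a soluble cyclase, had 2 of 4 tested genes higher and 2 lower. Of all tested genes, 36.3% were higher and 33.1% lower. The cyclase subunits Gucy1a1 and Gucy1b1 rose by 0.95 and 0.93 on the log2 scale (edgeR adjusted p 4.64e-04 and 8.78e-05), while the synthases Nos3 and Nos2 were at -0.67 and -0.79 and turned to 0.39 and 0.27 with total counts alone. Nos2 did not pass with upper quartile scaling (adjusted p 0.0627). Of 13 listed transcription regulators of Nppa and Nppb, all tested, 2 were higher, 10 lower and 1 not called, beside the same shares of all tested genes. The median of these 13 was -1.09 against 0.05 for all genes. With total counts alone they were 4 higher, 5 lower and 4 not called. Their highest log2 fold change was that of Nfatc4 (1.87), a calcineurin target, and their lowest that of Tbx5 (-1.98), a T-box factor of the heart. Nfatc4 had only 2 to 12 counts per sham library. It reached the count filter through the IZ, where it had 34 to 116 per library. The numbers of genes called per list were the same without IZ replicate 1.

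**Figure D5:**
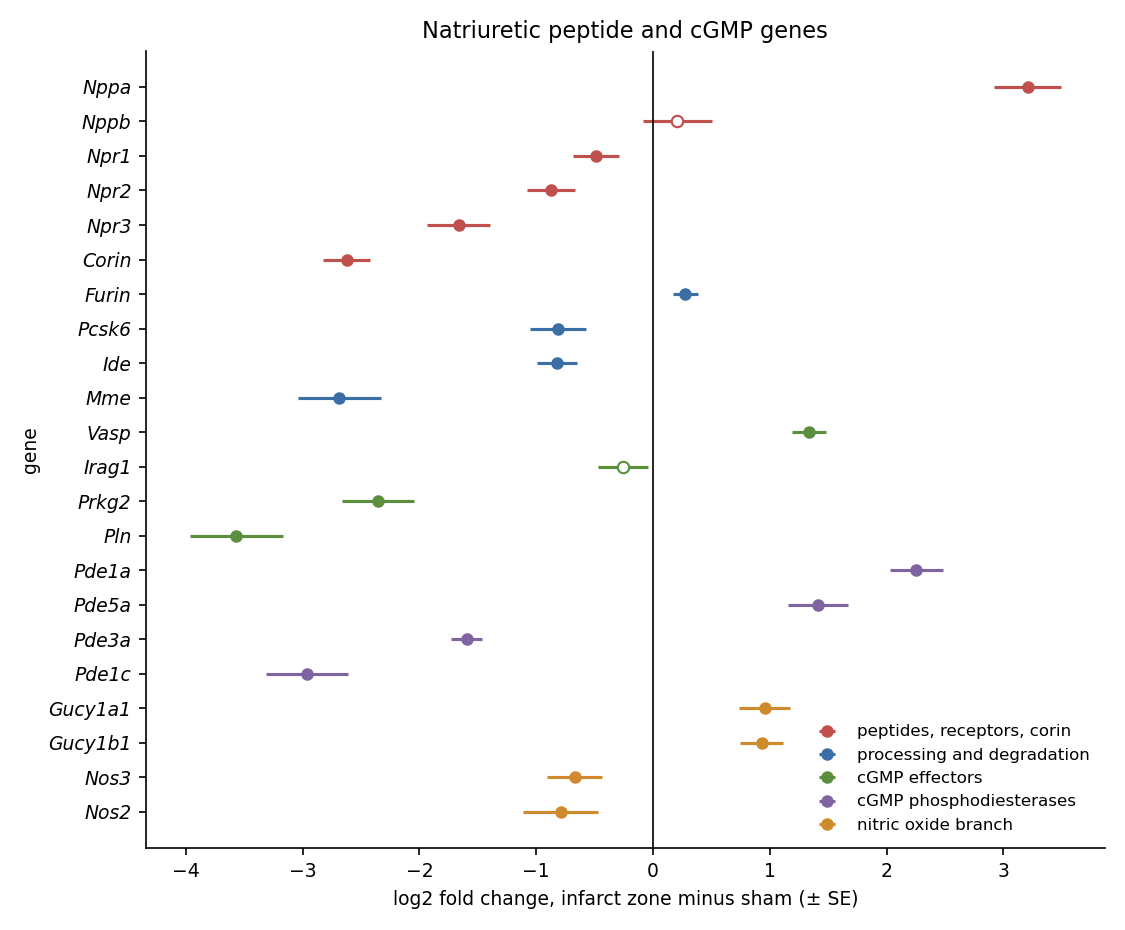
Log2 fold change (IZ minus sham, ± SE, TMM scaling) of the tested genes of the natriuretic peptide and cGMP lists, coloured by list, with open symbols for an edgeR adjusted p of 0.05 or more. Nppa (3.21) and Pde1a (2.25) lie farthest to the right and Pln (-3.57) farthest to the left.

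Markers of other cells and of atrial tissue were read beside these results, and their part in them was not tested. The calls per marker list stand beside 36.3% of all tested genes called higher and 33.1% called lower. Of the atrial markers, Myl7 and Myl4 were tested and both were lower in the IZ, at -4.97 and -3.35, whereas Nppa rose. The atrial sum was 14.9 to 442 CPM in sham and 2.24 to 23.1 CPM in the IZ. Sham replicate 8 had both the highest atrial sum and the highest sham Nppa, but the other sham libraries did not keep the same order. Sham replicate 3 had an atrial sum of 27.5 CPM with 398 CPM of Nppa. Replicate 6 had 304 with 331 CPM, and replicate 5 had 120 with 133 CPM. Their relation was not tested. Bmp10 was on the list but not found in the count table, and Sln had too few counts for a test. Of 4 cardiomyocyte stress transcripts 2 were lower and 2 not called, from -3.28 for Myh7 to -0.15 for Xirp2. With total counts alone 1 of them was higher (Xirp2, 0.86), 2 lower and 1 not called, and without IZ replicate 1 all 4 were lower. Beside the receptors, 1 of 5 endothelial markers was lower (Kdr, -1.70) and 4 were not called, with sums of 339 to 673 CPM in sham and 251 to 451 CPM in the IZ. With total counts alone 4 endothelial markers were higher and 1 lower, and their median log2 fold change turned from -0.21 to 0.87, while without IZ replicate 1 it was -0.26 with 2 lower. Of 3 endocardial markers 2 were higher and 1 lower, from 2.35 for Plvap to -4.65 for Cytl1, with sums of 22.1 to 60.4 CPM and 58.3 to 91.9 CPM. Cytl1 had 0 to 9 counts per IZ library. Plvap had 6 to 32 counts per sham library and reached the count filter through the IZ. Without IZ replicate 1 only 2 endocardial markers were tested, and both were higher. Of 5 mural markers 1 was higher, 3 lower and 1 not called, with sums of 356 to 583 CPM and 221 to 410 CPM, and with total counts alone 2 were higher and 1 lower, the median turning from -0.92 to 0.15. Of 5 fibroblast markers 4 were higher and 1 not called, with sums of 1165 to 2158 CPM and 7288 to 13723 CPM, and all 5 leukocyte markers were higher, with sums of 264 to 409 CPM and 1548.5 to 4425 CPM.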

How the data were processed

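Transcripts were measured in 17 hearts, grouped by the sample labels. Per the labels and the study's methods, the authors made 3′ end libraries with molecular identifiers for removing PCR duplicates, demultiplexed with bcl2fastq, trimmed with Cutadapt, mapped to mm10 (Bowtie2 is named among the tools) and counted per gene with HTSeq. The table deposited by the authors holds raw counts without normalization. The annotation release and the treatment of multiply mapped reads were not given in the sources used here. All columns were used. Of 31647 features, 35 were merged overlapping genes (0.0919 to 0.215% of counts), kept in library sizes, and 31521 matched a GRCm38 annotation. No member had a near-identical 3′ end (last 500 bases, 100 bases at 95% identity, BLAST 2.17.0), and antisense partners held at most 2 counts. No 2 libraries agreed within sampling noise (chi-square per degree of freedom 2.41 to 252).

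The quasi-likelihood F-test of edgeR 4.0.16 (R 4.3.3), two-sided and without covariates, was run on genes passing filterByExpr (10 counts) with TMM factors of 0.616 to 1.53 and adjusted by Benjamini-Hochberg over 12301 genes with a threshold of 0.05. A second fit used the summed count of the 10 cardiomyocyte transcripts as library size. Standard errors derive from the F statistic. Ratios used an added count of 0.5 and log2 CPM a prior count of 1. Single values were compared by exact two-sided permutation (all assignments of libraries to groups, 362880 pairings within the IZ, 40320 within sham). Replicates were separate mice per the study, so SDs and SEs include differences between mice. The floor of 3 counts covers counting error only. The labels gave no batch. The members and lists were chosen with earlier results of these data known. Named genes were the 6 members, the tested genes of the pathway lists, the highest and lowest gene of the regulator, stress and marker lists, the 5 genes most like each member, and genes within 200 kb of Nppa or Nppb. The result of 1 gene in that window is not reported here. The 10 denominator genes, other list members that name a setting and genes with too few counts are named as such. Of 90 listed genes 89 were in the table.

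Alternatives were other scalings (DESeq2 size factors, upper quartile, total counts alone), the Wald test of DESeq2 1.42.0, other filters, leaving out mitochondrial transcripts, a replicate block, other denominators, an added count of 1, and leaving out each library. The relations without IZ replicate 1 were added after seeing the data. The fits were tested on simulated data in which few genes changed, equally up and down. That setting lacks the wide change between these groups, so it cannot decide between scalings. Python 3.11.15 with NumPy 2.4.6, pandas 2.3.3, SciPy 1.17.1 and Matplotlib 3.10.9 was used. Promoters come from RefSeq (GRCm38.p6), where all 6 members matched.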

Additional observations from a re-analysis of the deposited data

Results flagged for a closer look

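Of 26 sets of 8 or 9 values examined (log2 CPM and log2 ratio to cardiomyocyte transcripts of each of the 6 genes in each group, and the summed cardiomyocyte level), 4 held a library whose distance from its nearest neighbour exceeded Dixon's critical share of the range. Chance gives about 1 in 20. In sham replicate 5 the log2 CPM of Nppa was 7.06, below the other sham libraries, with a gap of 0.542 of the range. In IZ replicate 1 the summed cardiomyocyte level was 14.9 on the log2 CPM scale, above the other IZ libraries, with a gap of 0.628 of the range. In the same library the log2 ratio of Nppa to cardiomyocyte transcripts was -2.39, with a gap of 0.548, and that of Npr3 was -13.5, with a gap of 0.574, both below the other IZ libraries. The denominator of these ratios is the sum that set this library apart.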

How the results depend on the processing

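Of 492 alternatives to the values that answer a comparison, 465 were classed as the same. For single values this meant the same direction and side of the threshold. For numbers of genes or members called, a similar number was enough, so 3 members lower in place of 4 was classed as the same. With total counts alone 3 members were called higher and 1 lower, with Nppb at 1.19 (edgeR adjusted p 7.42e-05), Npr1 at 0.55 (0.00987), Npr2 at 0.17 (0.354) and Npr3 at -0.57 (0.0595) on the log2 scale, and the median of all genes moved to 1.13. Npr1 was at -0.38 (0.0886) with upper quartile scaling and -0.43 (0.0782) with no filter. A minimum mean of 50 counts left 5239 genes called and 1 member lower, as the receptors were not tested there. With no filter 21349 genes were called per cardiomyocyte transcript. Corin per cardiomyocyte transcript was -0.16 with Tnnt2 alone. Leaving out 1 library gave -0.66 to -0.40 for Npr1, -0.23 to 0.32 for Nppb, -1.25 to -0.88 for the Npr3 to Npr1 ratio and -0.50 to -0.29 for the Npr2 to Npr1 ratio. The Npr1 call was lost without sham replicate 1, 2 or 8 or IZ replicate 2, 4, 5, 6, 7 or 9. The relation of Npr1 to cardiomyocyte transcripts in the IZ turned to r -0.035 without the 2 farthest libraries and -0.10 without IZ replicate 1. The causes were not tested.

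Groups share replicate numbers, but deviations of same-numbered libraries correlated only at -0.232 to 0.133 over 8 pairs. The samples were treated as unpaired, though such a check cannot exclude a weak effect shared by same-numbered libraries. With the replicate block 7884 genes were called and Nppb was at -0.021 (edgeR adjusted p 0.955), and no other member's call changed. Depth limited Npr3, at 6 to 25 counts per IZ library, and the genes under the filter. It also limited Mme, at 0 to 8 counts per IZ library. In sham it limited Pde1a at 3 to 17 counts per library, Pde5a at 1 to 10 and Nfatc4 at 2 to 12.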

Other observations

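With TMM scaling, the genes around the ligands on chromosome 4 went in both directions in the IZ. Their directions with total counts alone are not given here. Of 14 other tested genes within 200 kb of Nppa or Nppb, 5 were higher, 6 lower and 3 not called (edgeR). Of all tested genes, 36.3% were higher and 33.1% lower. The median log2 fold change of the 14 genes was -0.07. The lowest was Mfn2, which encodes a mitochondrial fusion protein and averaged 515 ± 49.9 CPM (SD, n = 8) and 84.0 ± 55.6 CPM (SD, n = 9) in sham and IZ. Clcn6, the next tested gene after Nppa, was at -0.37 (edgeR adjusted p 0.342), and 2510039O18Rik, the next before Nppb, was at 0.44 (edgeR adjusted p 6.66e-04).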
